A study of Drosophila melanogaster with 16 samples.

Results

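TRP channels are cation channels of the cell membrane through which fly sensory neurons turn heat, touch, humidity, light or irritant chemicals into an electrical signal. The 6 TRP channel genes described here are TrpA1, pain, pyx, wtrw, Trpgamma and Pkd2, chosen by name and CG number from the 13140 genes that could be named on the arrays. They were measured by 11 probes on 14 spots of each array, out of 32162 probes. TrpA1 had 2 probes, pain and Pkd2 had 3 each, and pyx, wtrw and Trpgamma had 1 each. The wtrw probe is listed under its CG number, CG31284, and not under the gene symbol.

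Levels were compared in Drosophila melanogaster females, all wild type (Canton S), 5 to 7 days old by the labels, in antennae of flies starved for 28 hours, antennae of fed flies, brains of starved flies and brains of fed flies. Starved flies had been kept on moist tissue without food and fed flies under the same conditions with sucrose. Each of the 4 groups had 4 arrays, each array with an independent extract of 100 antennae or 50 brains pooled from 50 flies. All values are log2 signal relative to the 75th percentile of the array, so that a level of 0 equals that percentile and a difference of 1 is a doubling. Levels of different probes cannot be set against each other, because probes differ in brightness. In such extracts, a lower number of cells of a type and less RNA per cell cannot be told apart.

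The signal at the 75th percentile ranged from 614 to 700 in antennae of starved flies, 654 to 1028 in antennae of fed flies, 821 to 1012 in brains of starved flies and 710 to 883 in brains of fed flies, and no spot was saturated. The labelled tissues were checked against marker genes, whose levels were summed on the linear scale. All 8 antennal markers, among them the olfactory co-receptor Orco, were higher in antennae than in brain, with sums of 786 to 986 in starved and 684 to 965 in fed antennae, against 10.8 to 23.1 in starved and 13.6 to 18.6 in fed brains. All 7 photoreceptor markers were above background in antennae too, with sums of 132 to 223 in starved and 154 to 216 in fed antennae, against 263 to 340 in starved and 258 to 348 in fed brains. Each slide held 1 array of each group at a fixed position, so that group and position on the slide cannot be told apart.

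Among the 6 genes, pain was higher in antennae than in brain, and wtrw and pyx were lower in antennae, in starved as well as in fed flies. TrpA1 was higher in antennae in both feeding states by its first probe, while its second probe was called in fed flies alone. Starvation was followed by 1 called change, a higher level of wtrw in brain, which was small and was lost under several ways of processing. Trpgamma was close to the background and Pkd2 was not above it. The plot of levels by array shows all 6 genes.

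**Figure D1:**
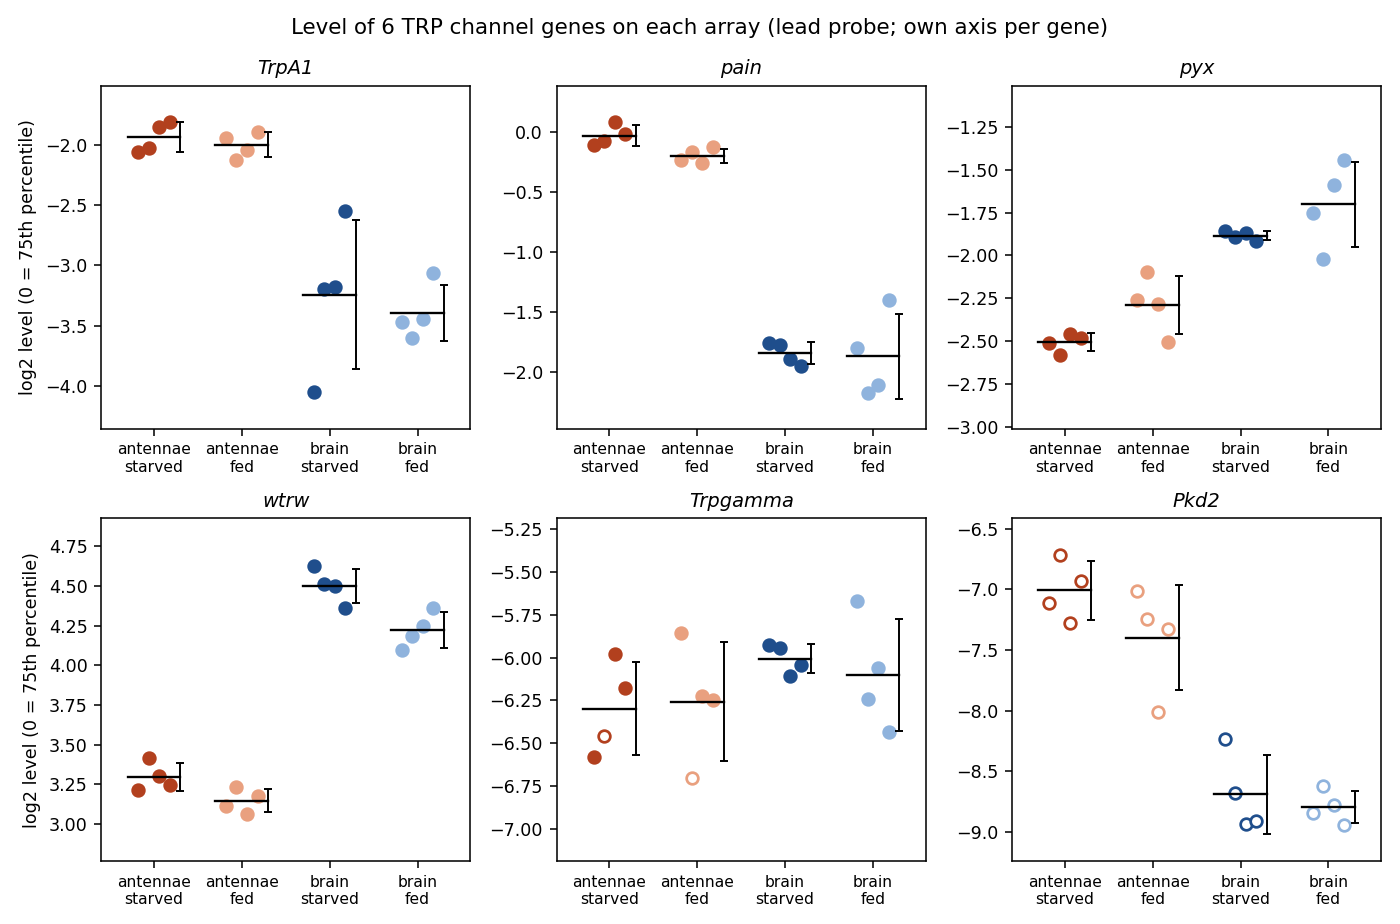
Log2 level of each gene's lead probe (the probe with the highest mean level) relative to the array's 75th percentile, 1 point per array, in antennae of starved and fed flies and brains of starved and fed flies. Lines are means and bars SD (n = 4). Open points were not well above background. TrpA1 and pain lie higher in antennae, and pyx and wtrw lie lower in antennae, with no overlap between the tissues within a feeding state.

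TrpA1 encodes a channel opened by warmth and by reactive irritants, and is known from a small set of warmth-sensing neurons inside the fly brain as well as from sensory neurons of the periphery. Its first probe had levels of -2.06, -2.03, -1.85 and -1.81 in antennae of starved flies. In antennae of fed flies the levels were -1.94, -2.13, -2.04 and -1.90. In brains of starved flies they were -4.05, -3.20, -3.18 and -2.55, and in brains of fed flies -3.47, -3.60, -3.44 and -3.06. Every antennal level thus lay above every brain level, while starved and fed arrays overlapped in both tissues.

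The spread of TrpA1 differed between the groups. The SD of the first probe was 0.12 in antennae of starved flies and 0.10 in antennae of fed flies, against 0.62 in brains of starved flies and 0.23 in brains of fed flies (n = 4 each). The second probe had levels of -5.86, -3.73, -3.55 and -2.96 in brains of starved flies, and -3.85, -4.09, -3.85 and -3.32 in brains of fed flies. Replicate 1 was the lowest and replicate 4 the highest of the starved brains by both probes. Over the 8 antennal arrays the probes correlated with r = 0.659 (Spearman's rho = 0.548), and over the 8 brain arrays with r = 0.91 (rho = 0.976). These values are a description, since both probes were read on the same extracts.

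**Figure D2:**
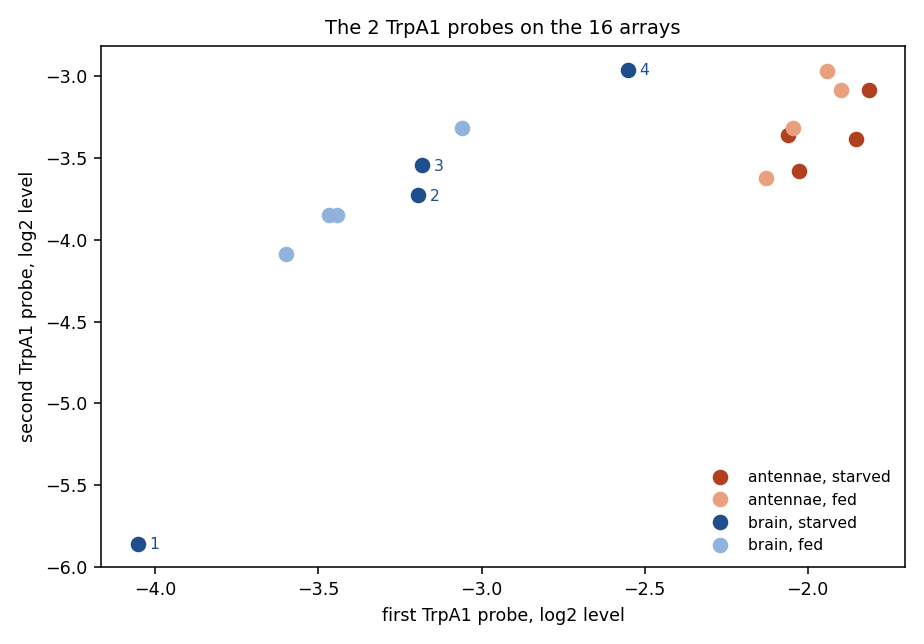
Log2 level of the first TrpA1 probe (x axis) against the second (y axis) on the 16 arrays, coloured by group. Starved brains carry their replicate number. Among starved brains, replicate 1 is low by both probes (-4.05 and -5.86) and replicate 4 is high by both (-2.55 and -2.96).

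The pain gene (painless) encodes a channel needed for the escape of larvae from noxious heat and touch, and in adults for gravity sensing by Johnston's organ, the chordotonal organ of the antenna. Its first probe had levels of -0.11, -0.074, 0.086 and -0.016 in antennae of starved flies, and -0.24, -0.17, -0.26 and -0.13 in antennae of fed flies. In brains of starved flies the levels were -1.76, -1.78, -1.90 and -1.95, and in brains of fed flies -1.80, -2.18, -2.11 and -1.40. The antennae of starved flies lay above those of fed flies on every array, though by little, and the brain groups overlapped. The second probe ranged from 0.063 to 0.24 in antennae of starved flies and from -0.018 to 0.020 in antennae of fed flies, against -2.60 to -2.09 in brains of starved flies and -2.33 to -1.67 in brains of fed flies. The third probe showed the same split by tissue, with -3.90 to -3.65 and -4.35 to -3.64 in starved and fed antennae, against -6.15 to -5.31 and -6.08 to -5.38 in starved and fed brains.

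The pyx gene (pyrexia) encodes a channel opened by high temperature that protects flies from paralysis under heat stress. Its levels were -2.51, -2.58, -2.46 and -2.48 in antennae of starved flies and -2.26, -2.10, -2.29 and -2.51 in antennae of fed flies. In brains of starved flies they were -1.86, -1.90, -1.87 and -1.92, and in brains of fed flies -1.75, -2.02, -1.59 and -1.44. In antennae, replicate 4 of the fed flies lay among the starved arrays and the other fed arrays lay above them. Both starved groups were tight, with an SD of 0.053 in antennae and 0.025 in brain, against 0.17 and 0.25 in antennae and brain of fed flies (n = 4 each).

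The wtrw gene (water witch) encodes a channel needed for the sensing of moist air by antennal neurons. Its levels were 3.21, 3.41, 3.31 and 3.24 in antennae of starved flies and 3.11, 3.23, 3.06 and 3.17 in antennae of fed flies. In brains of starved flies they were 4.63, 4.51, 4.50 and 4.36, and in brains of fed flies 4.10, 4.18, 4.25 and 4.36. The starved and fed groups overlapped within each tissue. In brain the overlap came from replicate 4 alone, whose starved and fed arrays were both at 4.36.

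Trpgamma encodes a channel of the same subfamily as trp and trpl of the phototransduction cascade, known from photoreceptors and from mechanosensory neurons of the leg. Its levels were -6.58, -6.46, -5.98 and -6.18 in antennae of starved flies, with 3 of 4 arrays well above background, and -5.86, -6.71, -6.22 and -6.25 in antennae of fed flies, again with 3 of 4. In brain all arrays were well above background, at -5.92, -5.95, -6.11 and -6.04 in starved and -5.67, -6.24, -6.06 and -6.43 in fed flies. All 4 groups overlapped. Pkd2, a polycystin-like channel known from fly sperm, was not well above background by any of its 3 probes on any of the 16 arrays. Its first probe read -7.28 to -6.71 and -8.01 to -7.01 in antennae of starved and fed flies, against -8.94 to -8.23 and -8.94 to -8.62 in brains of starved and fed flies, and no fold is given for it. Its other 2 probes read -8.53 to -8.21 and -8.78 to -8.46 in starved antennae and -8.47 to -8.10 and -8.72 to -8.37 in fed antennae, and the brain arrays overlapped these ranges.

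The comparison of starved with fed antennae asks which channels change in the sensory organ after 28 hours without food. By limma, with Benjamini-Hochberg adjustment over all 20587 probes tested, 0 of the 7 member probes tested were called, where 29.5% of all tested probes were (10.3% higher and 19.2% lower in starved flies). The unadjusted p was below 0.05 for 3 of the 7, the first and second pain probes and pyx, as it was for at least 29.5% of all tested probes. The methods' t-test called 1 probe, higher in starved flies, and its share over all probes is not given here. The first pain probe differed by 0.17 (SE 0.067, 95% interval 0.017 to 0.32, adjusted p = 0.0868) and the second by 0.15 (SE 0.060, 95% interval 0.015 to 0.29, adjusted p = 0.0882). For both, starved and fed antennae did not overlap, which was so for 31.9% of all tested probes. The third pain probe differed by 0.18, with overlap and a wider interval (-0.19 to 0.56, adjusted p = 0.42).

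The other members in antennae had changes on both sides of 0. The pyx difference was -0.22 (SE 0.090, adjusted p = 0.0975), and without replicate 4 of the fed antennae it was -0.29 with an adjusted p of 0.032, a call. With array weights it was also called (-0.25, adjusted p = 0.0473). The wtrw difference was 0.15 (SE 0.070, 95% interval -0.011 to 0.31, adjusted p = 0.139), positive on all 4 slides. The TrpA1 probes differed by 0.065 (95% interval -0.13 to 0.26, adjusted p = 0.587) and -0.11 (95% interval -0.46 to 0.25, adjusted p = 0.635), so that changes within these intervals remain possible. Trpgamma, too dim for the fit in antennae, differed by -0.040 (exact permutation test, two-sided, p = 0.886, n = 4 each, where 0.0286 is the smallest p possible).

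These antennal results depended on the scaling. Centring each array on its median moved the median change of all tested probes by 0.25, and 8450 probes were then higher and 1635 lower in starved antennae, against 2123 higher and 3944 lower with the 75th percentile. Normexp background correction gave 1535 and 1805 and quantile normalization 3278 and 2163. With that centring, 5 of the 7 member probes were called, all higher: the first TrpA1 probe (0.32, adjusted p = 0.0282), the 3 pain probes (0.41 to 0.44, adjusted p = 0.0043 to 0.0367) and wtrw (0.40, adjusted p = 0.00656). The pyx difference was then 0.036.

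In brain, 1 of 8 member probes tested was called, higher in starved flies, where 33% of all 21838 probes tested were called (11% higher and 22% lower). With median centring 4608 probes were higher and 2251 lower, and with quantile normalization 2882 and 2788, against 2404 and 4804 with the 75th percentile. The called probe was that of wtrw, which averaged 4.50 ± 0.11 in starved and 4.22 ± 0.11 in fed brains (SD, n = 4 each), a log2 difference of 0.28 or 1.21-fold (SE 0.089, 95% interval 0.074 to 0.48, adjusted p = 0.0436). Within slides the difference was 0.53, 0.33, 0.25 and -0.0016, so that replicate 4 showed none. An exact permutation test of the same arrays gave p = 0.0571 (two-sided, n = 4 each).

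Beside the replicate block, which also ended the call and is given with the other ways of processing, the wtrw call did not hold under 8 of 19 alternatives, with adjusted p-values between 0.0107 and 0.362 over all 19 and a difference above 0 in each. It was lost with quantile normalization (0.12, adjusted p = 0.362), with no filter on dim probes (adjusted p = 0.0803), and without replicate 1, 2 or 3 of the starved brains or replicate 1, 2 or 3 of the fed brains (adjusted p = 0.0809 to 0.12). In the same brains all 5 fat body markers were higher in starved flies, with summed levels of 72.0 to 144 against 22.6 to 43.2 in fed flies, and 2 of 4 glial markers were higher, with sums of 30.2 to 37.9 against 27.9 to 31.4. Their part in the wtrw result was not tested.

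**Figure D3:**
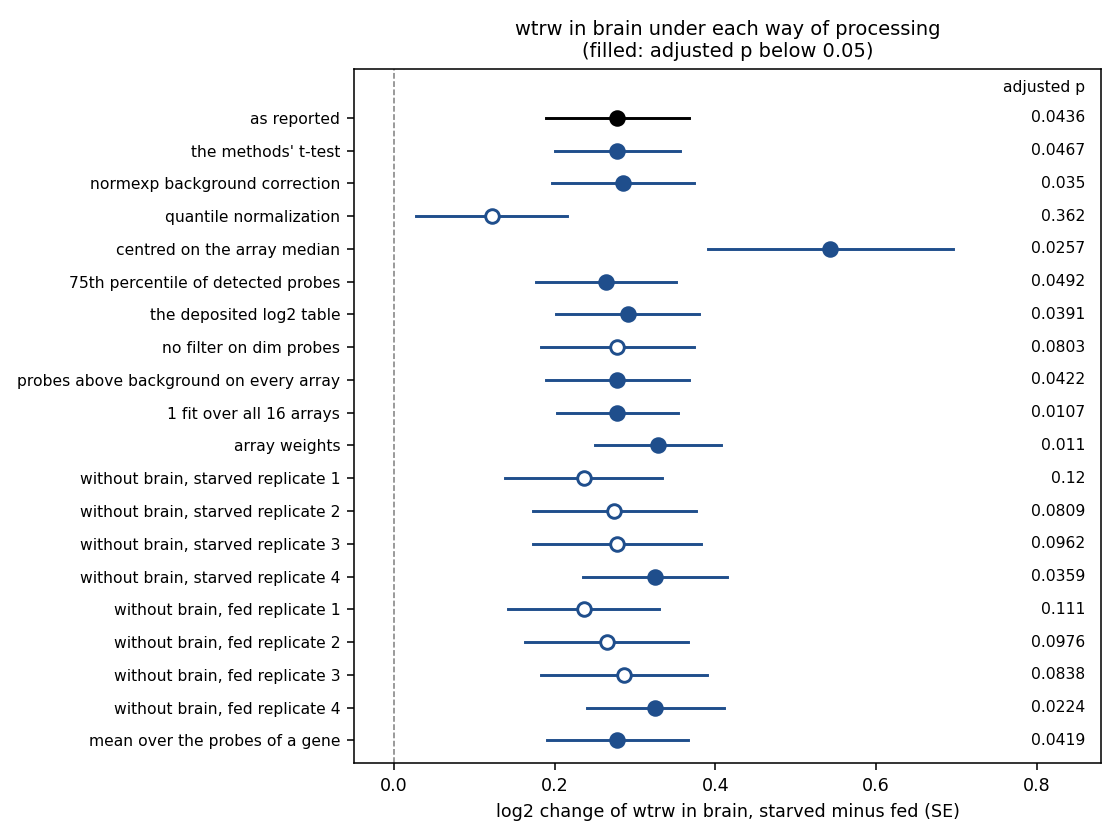
Log2 change of wtrw in brain, starved minus fed, with SE (x axis), as reported and under 19 alternatives (rows, the replicate block not drawn), with the adjusted p at the right. Filled points have an adjusted p below 0.05. All points lie above 0, from 0.12 to 0.54, and 8 of the 19 alternatives are open.

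The remaining member probes had adjusted p-values of 0.272 or more in brain. The pyx difference was -0.18 (SE 0.12, 95% interval -0.46 to 0.096, adjusted p = 0.272). The pain probes differed by 0.027, -0.24 and -0.026, with the largest at an adjusted p of 0.287. The TrpA1 probes differed by 0.15 (95% interval -0.51 to 0.81) and -0.25 (95% interval -1.54 to 1.04), the widest intervals of the set. Without replicate 1 of the starved brains the first TrpA1 probe differed by 0.42 (adjusted p = 0.165), and without replicate 4 by -0.084 (adjusted p = 0.817). Trpgamma differed by 0.096 (SE 0.16, adjusted p = 0.66), but by 0.66 with quantile normalization (adjusted p = 0.0176).

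**Figure D4:**
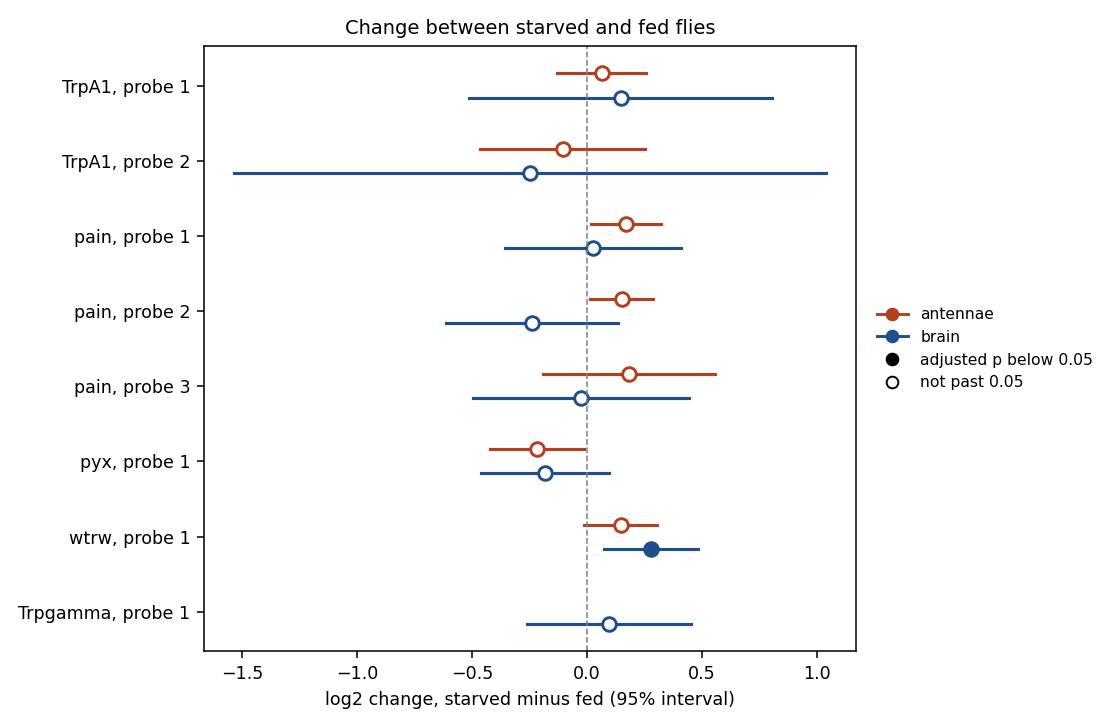
Log2 change between starved and fed flies (x axis, starved minus fed) for each member probe tested (rows), in antennae (red) and brain (blue). Points are estimates and lines 95% intervals from limma (n = 4 arrays each). Filled points have an adjusted p below 0.05. The point of wtrw in brain (0.28) is the filled one.

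Whether the response to starvation differed between antennae and brain was tested as the interaction over all 16 arrays. By limma 0 of 8 member probes were called, where 2.96% of the 22784 probes tested were (1.31% with a higher and 1.65% with a lower change in antennae). The unadjusted p was below 0.05 for 1 of 8, and the share of all tested probes below 0.05 before adjustment is not given here. Of all probes called 299 had a higher and 376 a lower change in antennae, against 522 and 364 with normexp background correction and 258 and 505 with quantile normalization. The 1 member probe was the second of pain, with a change of 0.15 in antennae against -0.24 in brain, an interaction of 0.39 (SE 0.18, 95% interval 0.0049 to 0.78, adjusted p = 0.301). For wtrw the antennal change minus the brain change was -0.13 (95% interval -0.36 to 0.10, adjusted p = 0.602). For pyx it was -0.035 (95% interval -0.36 to 0.29, adjusted p = 0.939).

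The tissues differed far more than the feeding states. In starved flies 6 of 8 member probes tested differed between antennae and brain, 4 higher and 2 lower in antennae, where 76.9% of all 21471 probes tested were called (35.9% higher and 41% lower). In fed flies 7 of 8 differed, 5 higher and 2 lower in antennae, where 74.9% of all 22624 probes tested were called (33.1% higher and 41.8% lower). In each feeding state 6 member probes did not overlap between the tissues, where 72.7% of all tested probes did not in starved and 69.8% in fed flies. Most probes on the arrays differed between the tissues, so that the members' count is near the background.

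The pain gene showed the largest tissue differences of the member probes tested. Its 3 probes were 3.52-, 5.30- and 3.85-fold higher in antennae than in brain of starved flies (log2 1.82, 2.40 and 1.94, adjusted p = 7.61e-08, 2.32e-07 and 8.31e-06). In fed flies the same probes were 3.19-, 4.04- and 3.33-fold higher in antennae (log2 1.67, 2.01 and 1.73, adjusted p = 2.54e-05, 1.76e-06 and 8.44e-05). The difference was positive on all 4 slides for each probe in both feeding states. With normexp background correction the third probe differed by 0.92 in starved and 0.67 in fed flies. In the same arrays all 6 markers of chordotonal neurons were higher in antennae, with sums of 8.70 to 9.68 in starved and 7.98 to 9.56 in fed antennae, against 0.110 to 0.143 in starved and 0.136 to 0.173 in fed brains. Their part in the pain differences was not tested.

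TrpA1 was higher in antennae by its first probe, by 2.48-fold in starved flies (log2 1.31, SE 0.28, adjusted p = 0.00236) and 2.62-fold in fed flies (log2 1.39, SE 0.12, adjusted p = 1.34e-05). The second probe differed by 0.67 in starved flies (95% interval -0.60 to 1.94, adjusted p = 0.294), where replicate 1 of the brains alone gave a slide difference of 2.49 and the other slides 0.15, 0.16 and -0.12. In fed flies the second probe was higher in antennae by 0.53 (SE 0.20, adjusted p = 0.037), with overlap between the tissues, and this call was lost with normexp background correction (0.31, adjusted p = 0.0502). The mean over both probes in starved flies differed by 0.99 (adjusted p = 0.0566). Both probes thus pointed the same way, with unequal sizes.

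The wtrw level was 2.31-fold lower in antennae than in brain of starved flies (log2 -1.21, SE 0.079, adjusted p = 1.46e-06) and 2.11-fold lower in antennae of fed flies (log2 -1.08, SE 0.082, adjusted p = 5.09e-06). The difference was negative on all 4 slides in both states. The pyx level was 1.54-fold lower in antennae of starved flies (log2 -0.62, SE 0.057, adjusted p = 1.31e-05) and 1.5-fold lower in antennae of fed flies (log2 -0.59, SE 0.14, adjusted p = 0.00524), where median centring ended the call (-0.42, adjusted p = 0.0637). All 7 photoreceptor markers were lower in antennae than in brain as well, with the sums given above. So were all 5 markers of neurons in general and all 7 brain neuron markers, in both feeding states. The part of these markers in the wtrw and pyx differences was not tested.

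Trpgamma was not called between the tissues, with a difference of -0.29 in starved flies (SE 0.13, 95% interval -0.60 to 0.012, adjusted p = 0.0725) and -0.16 in fed flies (95% interval -0.65 to 0.33, adjusted p = 0.524). In starved flies the value turned on the processing, with 0.31 under normexp background correction (adjusted p = 0.00211), -0.38 with array weights (adjusted p = 0.0197) and -0.40 without replicate 3 of the starved antennae (adjusted p = 0.0126).

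**Figure D5:**
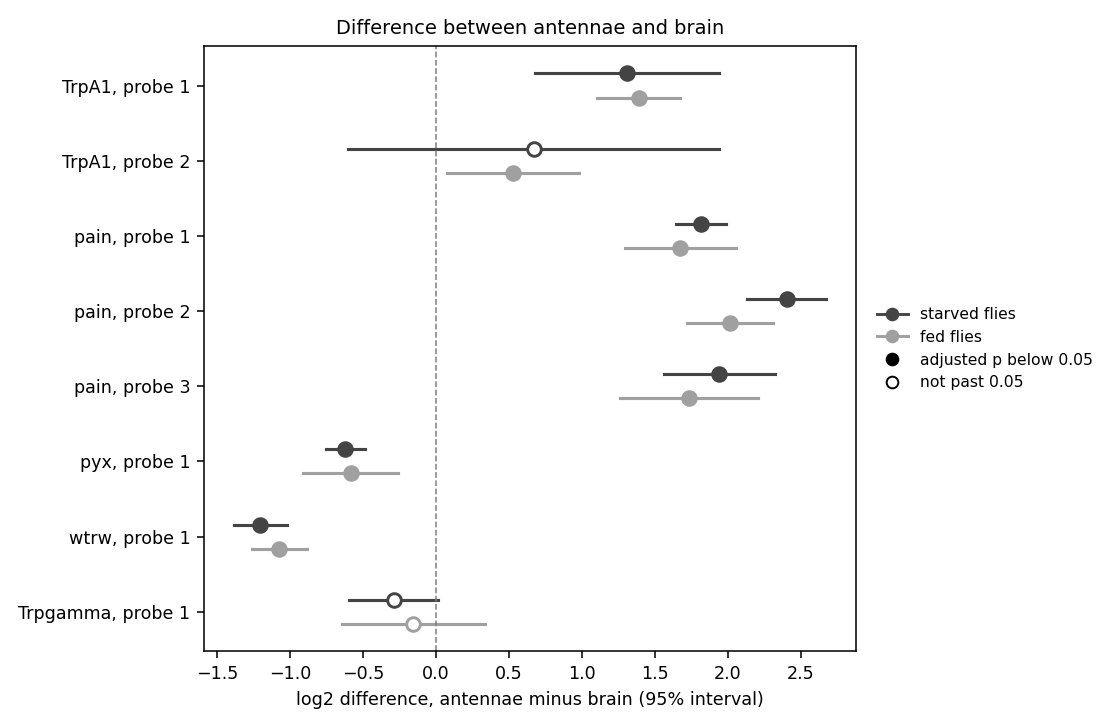
Log2 difference between antennae and brain (x axis, antennae minus brain) for each member probe tested (rows), in starved flies (dark) and fed flies (light). Points are estimates and lines 95% intervals from limma (n = 4 arrays each). Filled points have an adjusted p below 0.05. The 3 pain probes lie between 1.67 and 2.40, and pyx and wtrw lie below 0.

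By mean level, the order of the groups for TrpA1 and pain was antennae of starved flies, antennae of fed flies, brains of starved flies and brains of fed flies. Neighbours in this order overlapped except at the step from antennae to brain and, for pain, between the antennal groups, where no change was called. For wtrw the order was brains of starved flies, brains of fed flies, antennae of starved flies and antennae of fed flies, with no overlap at the step between the tissues and overlap at the others. For pyx it was brains of fed flies, brains of starved flies, antennae of fed flies and antennae of starved flies, again without overlap at the step between the tissues alone. The other probes of TrpA1 and pain had a lower mean in starved than in fed brains, opposite to the first probes.

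Some members lie in overlapping genes, and the positions of the probes within them were not used here. The wtrw gene overlaps mRpS9, a mitochondrial ribosomal protein gene, whose own probe was higher in antennae by 0.85 in starved flies (adjusted p = 1.27e-05) and 0.94 in fed flies (adjusted p = 3.77e-05), opposite to wtrw. The starvation change of mRpS9 in brain was 0.028 (adjusted p = 0.853). The pain gene overlaps NaCP60E, a sodium channel gene, all 7 probes of which were lower in antennae, by 1.76 to 2.60 on the log2 scale in starved and 1.85 to 2.49 in fed flies, again opposite to pain. Between starved and fed flies 5 of these 7 probes were called lower in antennae, where 19.2% of all tested probes were. In brain 5 of the 7 were lower too, against 22% of all tested. Over all 7 the changes were -1.02 to -0.36 in antennae and -1.10 to -0.28 in brain. For pyx the overlapping genes went the same way between tissues: Kaz1-ORFB was lower in antennae (-1.52 in starved and -0.71 in fed flies) and so was CG13877 (-2.13 and -1.20). In starved brains, however, Kaz1-ORFB was 1.23 higher (adjusted p = 0.000721) and CG13877 0.97 higher (adjusted p = 0.00277), where pyx had -0.18. TrpA1 overlaps a tRNA pseudogene, and Trpgamma and Pkd2 overlap no gene in the name table.

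The genes most like each member were sought by Pearson's r over the 16 arrays among 9094 genes. They were MED11 (0.954) and CG42390 (0.953) for TrpA1, Cpr67B (0.993) and CG34398 (0.992) for pain, CBP (0.946) and CG42331 (0.944) for pyx, and p, the gene pink (0.992), and Ssadh (0.991) for wtrw. The members themselves fell into a pair that correlated with each other, TrpA1 with pain (0.910), and another, pyx with wtrw (0.820), while pain and wtrw went opposite ways (-0.932). These values are a description over arrays that share extracts of 2 tissues, between which all 4 genes were split.

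A further 7 TRP channels of the fly with probes on the arrays were trp and trpl of the phototransduction cascade, the mechanosensory nompC, nan and iav, and Trpm and Trpml, which act in metal ion transport and in lysosomes. In antennae 0 of 7 were called between starved and fed flies by limma, where 29.5% of all tested probes were. Median centring called nan (0.49, adjusted p = 0.00416), Trpml (0.39, adjusted p = 0.00557) and Trpm (0.21, adjusted p = 0.0362) higher in starved antennae. Quantile normalization called nan there (0.26, adjusted p = 0.0466). In brain 1 of 6 tested was lower in starved flies, where 22% of all tested probes were. That was nompC, at -7.42 to -5.75 in starved and -5.38 to -4.76 in fed brains (difference -1.18, adjusted p = 0.0356), which quantile normalization did not call (-0.68, adjusted p = 0.116) and which was -0.34 with normexp background correction (adjusted p = 0.0318). Their median change was 0.088 in antennae and -0.10 in brain, against -0.039 and -0.086 over all probes tested. Between the tissues, 4 were higher and 3 lower in antennae in both feeding states. Among those higher in antennae were the chordotonal channels, whose brain levels lay near background, so that the sizes of their differences depend on the background correction. The log2 differences were 6.24 in starved and 6.01 in fed flies for nan (3.53 and 3.20 with normexp), 5.16 and 4.99 for iav (2.61 and 2.47), and 3.63 and 2.81 for nompC (1.63 and 1.47). In brain nan was well above background on 1 of 4 arrays of starved and 2 of 4 of fed flies, and nompC and iav on 3 of 4 of starved and all 4 of fed flies. The trp gene was lower in antennae (-1.05 in starved and -0.70 in fed flies), and its call in fed flies was lost on median centring (adjusted p = 0.0631).

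Of 9 further genes for temperature and humidity sensing, brv1 and brv2 passed the filter in no comparison. In antennae 1 of 6 tested was higher and 1 lower in starved flies. Of all tested probes 10.3% were higher and 19.2% lower in starved antennae, and 22% were lower in starved brains. Gr28b, whose product is a warmth receptor of the arista, averaged -0.50 ± 0.094 in starved and -0.90 ± 0.10 in fed antennae (SD, n = 4 each), a difference of 0.40 (SE 0.077, adjusted p = 0.00794). Ir40a, needed for sensing dry air, averaged -2.67 ± 0.11 in starved and -2.26 ± 0.10 in fed antennae, a difference of -0.41 (adjusted p = 0.00848) that was lost with median centring (-0.15, adjusted p = 0.14) and quantile normalization (-0.22, adjusted p = 0.0541) and was -0.26 with normexp (adjusted p = 0.0383). In brain 1 of 6 was lower, Ir93a, a co-receptor of cool and humidity sensing (-0.68, adjusted p = 0.0235), also lost with quantile normalization (-0.16, adjusted p = 0.676) and median centring (-0.41, adjusted p = 0.173), and -0.28 with normexp (adjusted p = 0.024). Between the tissues 5 of 7 were higher and 2 lower in antennae in each feeding state. The log2 difference was 6.91 in starved and 6.68 in fed flies for Ir25a, and 5.39 and 4.94 for Ir21a. In brain Ir25a was dim, averaging -5.98 in starved and -5.66 in fed flies, which limits the precision of the size given for it. For Ir40a the difference was 4.30 and 3.48 (1.80 and 1.71 with normexp), and it was above background on 2 of 4 starved and 3 of 4 fed brains. Ir68a went the other way, at -3.33 in starved and -3.24 in fed flies. It was well above background on 4 of 4 brain arrays of each feeding state and on 0 of 4 antennal arrays of each.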

How the data were processed

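RNA of each extract was amplified, labelled with Cy3 and hybridised to one-colour Agilent arrays, and the authors deposited the scanner files made by Feature Extraction (version 9.1), with 1 intensity per spot after background subtraction and before any scaling between arrays. A second deposited file holds log2 values. It differs from the log2 intensities by 1 constant per array (largest deviation 1e-09) and served as an alternative. The log2 intensities were set relative to each array's 75th percentile over its 43603 non-control spots, outlier spots were left out, and the spots of 1 probe were averaged. A probe was tested if it was well above background (at least 0.5 of its spots) on all 4 arrays of a group compared. Differences were fitted with limma 3.58.1 (lmFit, eBayes) in R 4.3.3, two-sided, over all probes passing the filter, with Benjamini-Hochberg adjustment at 0.05. The fits used only the 2 groups compared, or all 16 arrays for the interaction, without the replicate number. Single dim probes were compared with exact permutation tests. The array number limits the precision, and p-values set a difference against the spread between arrays, each of 1 pooled extract.

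Names came from a table of Release 6 gene names, used for names and overlaps only, which matched 20738 of 32162 probes. Every member was described with every probe. For the lists, the brightest probe of a gene stood for it, and at most 4 called genes per list and comparison were named. The members and lists were chosen with earlier results of these data known. Replicate number is also the slide. The numbers were not taken to pair the samples. Alternatives were the replicate block, the methods' t-test, other background corrections, scalings, filters and fits, array weights, and each array left out in turn. The fit was tested on simulated data. Figures were drawn with matplotlib 3.10.9 in Python 3.11.15.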

Additional observations from a re-analysis of the deposited data

How the results depend on the processing

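Of 507 alternative values for single genes, 463 kept their direction and side of the threshold, and of 101 alternative counts of member probes called, 89 stayed within 1.5 times the reported one, among them all for the interaction and for both tissue comparisons. In antennae the count, 0 as reported, was 1 with the methods' t-test, 2 with array weights, 5 with median centring and 0 to 1 with 1 array left out (1 without replicate 4 of the fed antennae). In brain the count of 1 became 0 with no filter on dim probes and 0 to 1 with 1 array left out. With the replicate number as a block it was also 0 (wtrw adjusted p = 0.12). The block changed no other call of a member's lead probe. A count does not show which probe was called. With quantile normalization in brain, wtrw was lost (limma, adjusted p = 0.362) and Trpgamma was called (adjusted p = 0.0176). Same-numbered arrays correlated in their deviations from the group means by -0.24 to 0.29, above 0.1 in 6 of 16 pairs, and 5 of 16 arrays correlated best with their own number. The cause of these changes was not tested.

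Values not called as reported also changed sign. In antennae, pyx was 0.036 with median centring, and TrpA1 -0.020 as the mean over its probes. In brain, normexp background correction gave -0.014 for pain and -0.12 for Trpgamma, median centring gave 0.082 for pyx, and the mean over probes gave -0.050 for TrpA1 and -0.079 for pain. With 1 brain array left out, pain ranged from -0.075 to 0.18, Trpgamma from -0.015 to 0.24 and TrpA1 from -0.084 to 0.42. For the interaction, normexp gave 0.0093 for TrpA1, 0.056 for pyx and 0.27 for Trpgamma, quantile normalization gave 0.020 for pyx, and the mean over probes gave 0.030 for TrpA1. With 1 array left out, the interaction ranged from -0.35 to 0.15 for TrpA1, -0.12 to 0.072 for pyx and -0.014 to 0.24 for pain. Between the tissues Trpgamma turned to 0.040 (normexp), 0.20 (quantile) and 0.0058 (median centring) in fed flies and to 0.31 (normexp) in starved flies. Signal over background limits Trpgamma, and for Pkd2 it allows no comparison.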

Other observations

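Phospholipase C signalling lies upstream of several TRP channels, among them trp and trpl of photoreceptors and, in the temperature preference of larvae, TrpA1. Of 7 genes of this pathway, 3 were lower and 0 higher in antennae of starved flies by limma, where 19.2% of all tested probes were lower and 10.3% higher, with a median change of -0.31, against -0.039 over all probes tested. The gene rdgA, a diacylglycerol kinase, averaged 0.43 ± 0.052 in starved and 1.15 ± 0.13 in fed antennae (SD, n = 4 each; difference -0.73, adjusted p = 0.00105). Plc21C, a phospholipase C, averaged -0.40 ± 0.20 in starved and 0.0066 ± 0.10 in fed antennae (difference -0.41, adjusted p = 0.0244, but -0.16 and 0.287 with median centring). Another phospholipase C, norpA, was lower as well (-0.24, adjusted p = 0.0328, but 0.0579 with normexp). With median centring norpA turned to 0.015 (adjusted p = 0.895), and of these 3 genes only rdgA stayed called (-0.47, adjusted p = 0.00617).

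In brain 2 of the 7 were lower and 0 higher in starved flies, where 22% of all tested probes were lower and 11% higher, so that the count is near the background. They were rdgA (-0.61, adjusted p = 0.00227) and Plc21C (-0.60, adjusted p = 0.00801), and with median centring neither was called (adjusted p = 0.0554 and 0.0513). Between the tissues 6 of 7 were lower in antennae and 1 higher in both feeding states. In antennae of starved flies 2 of 7 photoreceptor markers, one of them norpA itself, were also lower than in fed flies, with the summed levels given above. So were 3 of 5 markers of neurons in general, nSyb (-0.75), brp (-0.37) and Syx1A (-0.34), with sums of 24.9 to 31.4 in starved and 30.1 to 31.4 in fed antennae, and 3 of 4 brain neuron markers tested, Pdf (-3.84), NPF (-1.22) and Dh44 (-0.75), with sums of 0.131 to 0.250 in starved and 0.225 to 1.72 in fed antennae. The remaining markers of neurons in general, elav (0.27) and Syt1 (0.34), went the other way in antennae and were not called. Of the testis markers 2 of 4 tested were lower, dj (-1.40) and can (-1.41), with sums of 0.258 to 0.347 in starved and 0.324 to 0.890 in fed antennae. In starved brains dj (-2.22) and can (-2.54) were lower as well, 2 of 4 testis markers tested, and so was nSyb (-0.58). The remaining markers of neurons in general were not called in brain, with brp (-0.42) and Syx1A (-0.16) below 0 and Syt1 (0.48) and elav (0.13) above 0. The part of these markers in the pathway's values was not tested.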
